A study of Solanum pimpinellifolium with 6 samples.

Results

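The 10 genes described here encode 6 ethylene receptors (ETR1 to ETR6) and 4 transcription factors of the ETHYLENE INSENSITIVE 3-like family (EIL1 to EIL4) of tomato. They were taken by gene identifier, and all 10 were found among the 34723 genes with values. Young fruits 2 days post anthesis (dpa), set by hand pollination, gave 6 RNA sequencing libraries of Solanum pimpinellifolium (LA1589), a wild relative of the cultivated tomato. By their labels, 3 libraries came from the transgenic RNAi line 207, whose target is taken from the series title to be the zinc finger gene SlZFP2, and 3 came from the nontransgenic sibling, labelled wild type. The plants were 2 months old. A single transgenic line was profiled, and neither its construct nor the promoter driving it is stated in the sources used here. The extraction protocol names shoot tips, while the sample labels name fruits.

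Ethylene is a gaseous hormone that drives ripening in tomato fruit and takes part in fruit set and organ shedding. Its receptors sit in the endoplasmic reticulum membrane and work as negative regulators. Without ethylene they keep the kinase CTR1 active, which holds back the membrane protein EIN2, and binding of ethylene releases that block. EIN2 then lets EIL proteins accumulate in the nucleus, where they switch on response genes such as those of the ERF family. The F-box proteins EBF1 and EBF2 mark EIL proteins for breakdown. No protein or promoter sequences of these genes were used here.

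Values were taken as FPKM, per length of gene and depth of library, and levels of different genes are set side by side on that reading. The unit was inferred from the tools named and the decimals. The RNAi target was not lower under the line 207 label, and its difference did not pass the test. The reason for its direction was not tested. SlZFP2 (Solyc07g053570) was at 10.3, 9.03 and 7.45 FPKM under the line 207 label, against 2.89, 3.05 and 0.00147 FPKM under the sibling label, which is against the direction of silencing (limma adjusted p = 0.112). Every direction given here is therefore one between labels, and values are given under the label of their library. Relative depth, read from the steps between low values with sibling replicate 1 set to 1, was 0.386 to 0.776 in the libraries labelled line 207 and 0.804 to 1 in those labelled sibling. The summed level of 6 fruit and carpel markers was 957 to 1142 FPKM under the line 207 label. Under the sibling label it was 782 to 965 FPKM. Within that sum TM29 alone was at 492 to 652 FPKM over all libraries, while the ovule gene AGL11 was near 0 in 5 of 6 libraries. TAGL1 was at 0.0124 FPKM in line 207 replicate 3 and 0.000922 FPKM in sibling replicate 2, against 28.2 to 72.0 FPKM elsewhere. Among these markers the stamen and carpel identity gene TAG1 was called as higher under the line 207 label (limma adjusted p = 0.00877). The sum of 3 petal and stamen markers was 171 to 176 FPKM under the line 207 label, against 149 to 160 FPKM under the sibling label. The pollen marker LAT52 ranged from 6.71 to 8.24 FPKM under the line 207 label, against 7.58 to 39.4 FPKM under the sibling label. Of 3 shoot meristem markers, CLV3 was listed at 0 throughout, and their sum was 1.99 to 5.14 FPKM under the line 207 label, against 2.12 to 5.84 FPKM under the sibling label. The part of depth and of these markers in the results below was not tested.

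Many genes were near 0 in a single library of a group. Of the genes at 3 FPKM or more in at least 1 library, 26.6% under the line 207 label and 20.1% under the sibling label were below 0.01 FPKM in another library of the same group. Among the 10 genes this held for EIL2 under the line 207 label and for EIL1 and ETR6 under the sibling label. EIN2 (Solyc09g007870), needed for every ethylene response, never exceeded 0.053 FPKM. Whether a value near 0 was a failed estimate or a true absence was not tested, and such values are given by library.

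Of the 10 genes, EIL3 was the 1 that passed the test over all genes, and it was higher under the line 207 label. ETR1, ETR4 and EIL4 were also higher in every library labelled line 207 than in any labelled sibling, without passing. ETR2, ETR5, EIL1 and EIL2 overlapped between the groups. ETR3 and ETR6 were too low to be tested, which left 8 genes in the test, each at 1 FPKM or more in at least 1 library of either group. Under the sibling label EIL1 reached 1 FPKM in replicate 3 alone, and ETR4 in replicates 1 and 2. These genes passed the filter of 3 libraries only through the line 207 label. EIL2 missed 1 FPKM in line 207 replicate 2 and passed only through the sibling label. The filter thus favoured the sign of EIL1, ETR4 and EIL2 in the counts below. A call of 1 in 8 (12.5%) stands beside 10.1% of all 15766 genes tested, or 5.01% called as higher (limma, Benjamini-Hochberg adjusted p at most 0.05), and is near that background. Libraries of the 2 labels were fully separated for 4 of the 8, all higher under the line 207 label, against 33.2% of all tested genes in either direction and 15.6% in that direction. The log2 fold change was positive for 6 of the 8, against 46.0% of all tested genes. At an unadjusted p under 0.05, 4 of the 8 were higher (ETR4, EIL1, EIL3 and EIL4), against 12.1% of all tested genes (limma). The authors' deposited table tested 5 of the 10 and calls 2 of them, ETR1 and EIL3, against 28.4% of the genes it tested. The median log2 fold change was 0.98 for the 8 genes and -0.09 for all tested genes, on the log2(FPKM + 1) scale. In bulk RNA, fewer cells of a type and less RNA per cell cannot be told apart.

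**Figure D1:**
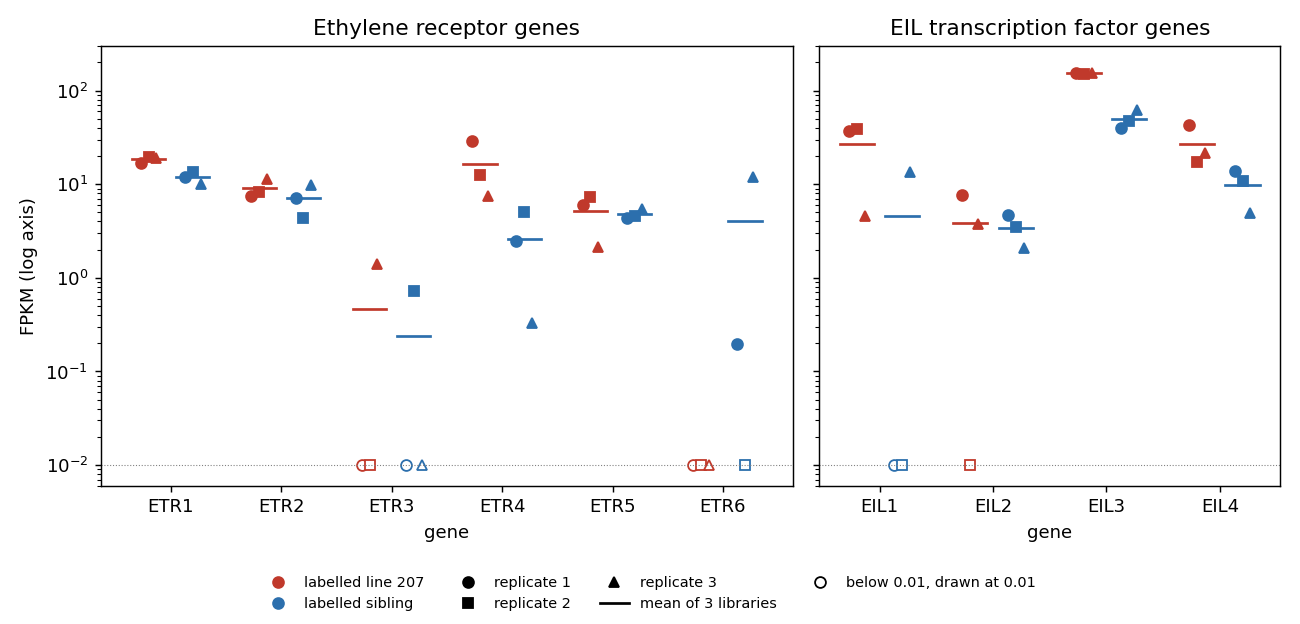
Levels of the 10 genes in FPKM on a log axis, with the libraries labelled line 207 left of those labelled sibling. Each point is 1 library, shaped by replicate number, each line is the mean of 3 libraries, and open points lie below 0.01 FPKM. EIL3 lies at 150.2 to 154 FPKM under the line 207 label, against 39.7 to 62.0 FPKM under the sibling label, while ETR3 and ETR6 are near 0 in most libraries.

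Subfamily I of the receptors keeps a complete histidine kinase domain and holds ETR1, ETR2 and ETR3. ETR1 (Solyc12g011330) was at 16.8, 19.3 and 19.0 FPKM under the line 207 label, against 12.0, 13.4 and 10.1 FPKM under the sibling label. The groups did not overlap, and the spread within each was narrow, with means of 18.4 ± 1.40 FPKM under the line 207 label, against 11.9 ± 1.63 FPKM under the sibling label (SD, n = 3). The ratio of means was 1.55, and the log2 fold change of 0.60 ± 0.27 (SE) did not pass (limma adjusted p = 0.213). The authors' deposited table gives ETR1 a q of 0.0460 and so calls it. The annotation there describes this gene as a fragment and names the ethylene sensor but no receiver region.

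ETR2 (Solyc07g056580) was at 7.40, 8.25 and 11.5 FPKM under the line 207 label, against 7.10, 4.38 and 9.69 FPKM under the sibling label. These ranges overlapped, and the log2 fold change of 0.35 had a 95% interval from -0.66 to 1.37 (limma adjusted p = 0.654). The test therefore leaves room for a change of either sign.

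ETR3 (Solyc09g075440), the NEVER-RIPE gene, is the receptor whose dominant mutation stops fruit ripening, and it lacks the receiver domain. It was at 1.39 FPKM in labelled line 207 replicate 3 and at 0.726 FPKM in labelled sibling replicate 2. The other 4 libraries were near 0, at most 2.28e-05 FPKM, so that no fold is given. At this stage its level was detectable in 1 library of each group.

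Subfamily II has a degenerate kinase domain and an added stretch at the front of the protein, and holds ETR4, ETR5 and ETR6. ETR4 (Solyc06g053710), which like ETR3 is known to be induced by ethylene in ripening fruit, was at 29.0, 12.5 and 7.45 FPKM under the line 207 label, against 2.49, 5.01 and 0.328 FPKM under the sibling label. Every library labelled line 207 lay above every labelled sibling, but the values within each group spread widely, with a mean of 16.3 ± 11.3 FPKM under the line 207 label, against 2.61 ± 2.35 FPKM under the sibling label (SD, n = 3), 6.26-fold apart. On the log2 scale the difference of 2.31 ± 0.74 (SE) missed the threshold (limma adjusted p = 0.0975), as did the authors' deposited q of 0.131. The highest value came from the library with the lowest relative depth, line 207 replicate 1. Without any 1 library the log2 fold change lay between 1.72, without sibling replicate 3, and 2.81, without sibling replicate 2, and it was 1.82 without line 207 replicate 1.

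ETR5 (Solyc11g006180) was at 6.04, 7.36 and 2.14 FPKM under the line 207 label, against 4.37, 4.60 and 5.37 FPKM under the sibling label. The labelled siblings fell inside the range of labelled line 207, and the log2 fold change was -0.02 with a 95% interval from -1.27 to 1.23 (limma adjusted p = 0.987). Another gene described as an ethylene receptor, Solyc11g006160, carries a nearby identifier and was at 8.08 FPKM in labelled line 207 replicate 1 and listed at 0 in the other libraries.

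ETR6 (Solyc09g089610) was at most 0.000864 FPKM in every library labelled line 207. In the libraries labelled sibling it was at 0.198, 0.000756 and 11.8 FPKM. Its presence therefore rests on sibling replicate 3. A further receptor gene, ETR7 (Solyc05g055070), was at 5.60 FPKM in line 207 replicate 1 and at 2.18 FPKM in sibling replicate 2 by label, and near 0 elsewhere. Both genes failed the filter on low values.

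EIL proteins bind the promoters of ethylene response genes, and in tomato they are known to act redundantly. EIL3 (Solyc01g096810) was at 153, 150.2 and 154 FPKM under the line 207 label, against 39.7, 47.7 and 62.0 FPKM under the sibling label. The groups lay far apart, and the libraries labelled line 207 were almost level with each other. Their coefficient of variation was 1.42%, which 0.19% of tested genes undercut in that group, whereas it was 22.7% under the sibling label. The ratio of means was 3.07, with a log2 fold change of 1.62 ± 0.19 (SE) and a 95% interval from 1.16 to 2.08 (limma adjusted p = 0.00588). Its mean stood at the 95.1st percentile of tested genes under the line 207 label and at the 84.3rd under the sibling label. The call held whichever library was left out, with log2 fold changes of 1.47 to 1.79 and adjusted p from 0.00832 to 0.0295.

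EIL4 (Solyc06g073730) was at 42.6, 17.3 and 21.4 FPKM under the line 207 label, against 14.0, 10.8 and 4.87 FPKM under the sibling label. The groups did not overlap, and the gap between 17.3 and 14.0 FPKM was smaller than the spread within either. With means of 27.1 ± 13.5 FPKM under the line 207 label, against 9.89 ± 4.62 FPKM under the sibling label (SD, n = 3), EIL4 differed by 1.37 ± 0.49 (SE) on the log2 scale, short of the threshold (limma adjusted p = 0.127).

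EIL1 (Solyc06g073720) carries the identifier just before that of EIL4. It was at 36.8, 38.8 and 4.62 FPKM under the line 207 label, against 0.00395, 0.000453 and 13.6 FPKM under the sibling label. The groups overlapped through sibling replicate 3, which lay above line 207 replicate 3. The log2 fold change of 3.06 ± 1.26 (SE) depends on the 1 added before the logarithm, since 2 values are near 0, and did not pass (limma adjusted p = 0.181). It was 4.35 without sibling replicate 3 (limma adjusted p = 0.0624) and 2.41 without sibling replicate 1 or 2. All 4 EIL genes share 1 description in the deposited table. Whether the authors' estimates divided reads among them was not tested. The sum of EIL1 and EIL4 was 79.4, 56.1 and 26.1 FPKM under the line 207 label, against 14.0, 10.8 and 18.5 FPKM under the sibling label. In that sum the groups did not overlap, as in EIL4 alone and unlike EIL1 alone. Among single tested genes 33.2% did not overlap in either direction. No test of the sum is given.

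EIL2 (Solyc01g009170) was the lowest EIL gene by mean in both groups, at 7.70, 0.000116 and 3.76 FPKM under the line 207 label, against 4.64, 3.52 and 2.08 FPKM under the sibling label. The groups overlapped, and the log2 fold change of -0.31 turned to 0.59 without line 207 replicate 2, the library near 0 (limma adjusted p = 0.857 with all libraries).

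**Figure D2:**
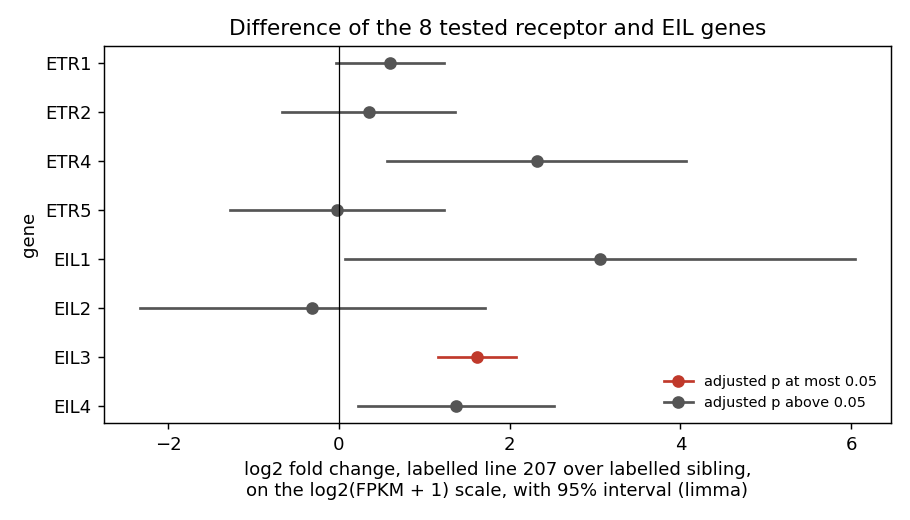
Log2 fold changes of the 8 tested genes, labelled line 207 over labelled sibling, with 95% intervals from limma on the log2(FPKM + 1) scale. EIL3 alone, at 1.62, has an adjusted p of at most 0.05, and the interval of EIL1, from 0.07 to 6.04, is the widest.

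The order of levels was led by EIL3 in both groups, above all others beyond the range of its libraries. In labelled line 207 the means then ran EIL4, EIL1, ETR1, ETR4, ETR2, ETR5, EIL2, ETR3 and ETR6. Neighbours in that order overlapped in range, except that ETR2, with a lowest value of 7.40 FPKM, stayed just above ETR5, with a highest value of 7.36 FPKM. In labelled sibling the order after EIL3 was ETR1, EIL4, ETR2, ETR5, EIL1, ETR6, EIL2, ETR4 and ETR3, and all neighbours after EIL3 overlapped. By mean, ETR4 had rank 5 under the line 207 label and rank 9 under the sibling label.

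Summed over the 6 receptors, the level was 59.2, 47.5 and 41.5 FPKM under the line 207 label, against 26.2, 28.1 and 37.4 FPKM under the sibling label. These did not overlap, and the ratio of means was 1.62. Without ETR6 the labelled siblings were at 26.0, 28.1 and 25.5 FPKM and the ratio was 1.86. Subfamily I summed to 27.9 ± 3.88 FPKM under the line 207 label, against 19.2 ± 0.675 FPKM under the sibling label (SD, n = 3). Subfamily II was less even, at 35.1, 19.9 and 9.60 FPKM under the line 207 label, against 7.06, 9.62 and 17.5 FPKM under the sibling label, and it overlapped. Without ETR6 the labelled siblings were at 6.86, 9.62 and 5.70 FPKM, the overlap was down to 9.60 against 9.62 FPKM, and the ratio of means was 2.91 in place of 1.89. ETR6 is the receptor with the higher mean under the sibling label, so leaving it out raises both ratios. No sum is given without ETR4, which was at 29.0 FPKM in line 207 replicate 1.

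ETR1 made up 28.3, 40.8 and 45.8% of the receptor sum under the line 207 label, against 46.0, 47.6 and 27.1% under the sibling label, and these overlapped. ETR4 gave 49.0, 26.4 and 18.0% under the line 207 label, against 9.49, 17.8 and 0.877% under the sibling label. Its share was thus higher in every library labelled line 207, although by a narrow margin between 18.0 and 17.8%. By mean share ETR1 led ETR4 under the line 207 label, but without line 207 replicate 3 ETR4 led, with 37.7% against 34.5%.

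The 4 EIL genes summed to 241, 206 and 184 FPKM under the line 207 label, against 58.3, 62.1 and 82.6 FPKM under the sibling label. This is a ratio of means of 3.11 with no overlap. EIL3 held 63.8, 72.8 and 83.8% of the sum under the line 207 label and 68.1, 76.9 and 75.1% under the sibling label. Its shares overlapped, whereas its levels did not. The EIL sum divided by the receptor sum was 4.06, 4.35 and 4.44 under the line 207 label and 2.22, 2.21 and 2.21 under the sibling label. Without ETR6, whose level rests on 1 library, the labelled siblings were at 2.24, 2.21 and 3.23, still below labelled line 207. No test is given for these sums and shares.

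**Figure D3:**
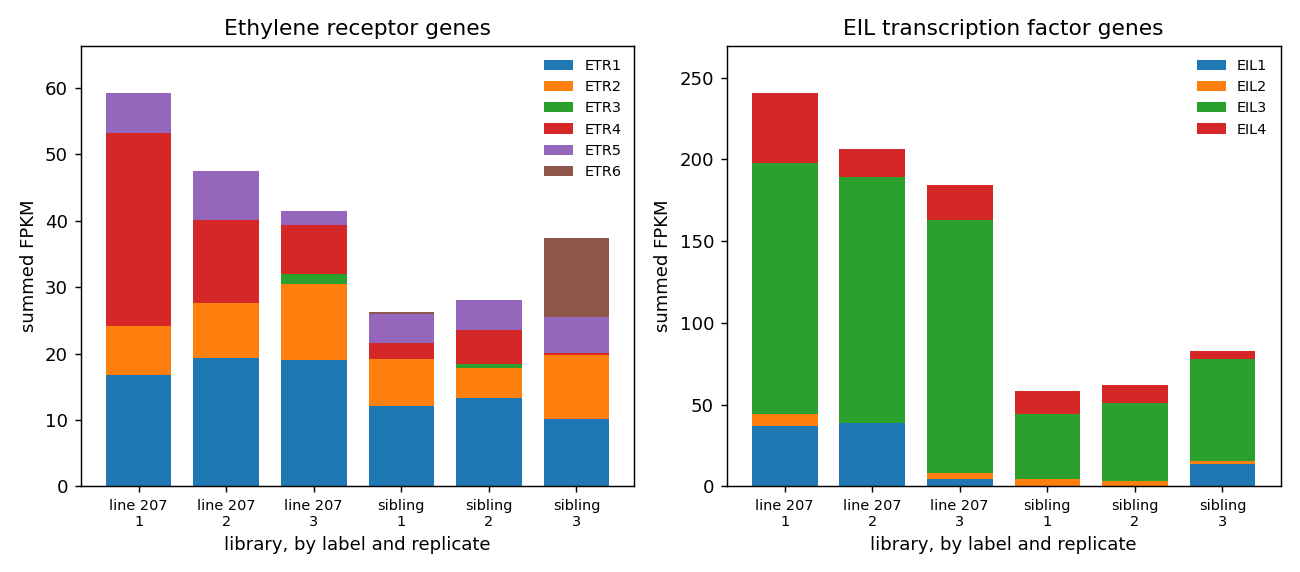
Summed FPKM of the receptor genes and of the EIL genes in each library, with the libraries labelled line 207 left of those labelled sibling and each colour 1 gene. EIL3 makes up most of the EIL sum in all 6 libraries, and ETR6 appears as a visible block in sibling replicate 3 only.

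Other parts of signal transfer were read from 7 genes, a list that includes the receptor gene ETR7. Of these, 4 could be tested and none passed, against 10.1% of all tested genes (limma). All 4 log2 fold changes were positive, with a median of 1.00, against 46.0% positive of all tested genes. The kinase gene CTR1 (Solyc10g083610) was at 11.5, 5.64 and 13.7 FPKM under the line 207 label, against 1.97, 1.96 and 6.77 FPKM under the sibling label (limma adjusted p = 0.192). Its relative CTR3 (Solyc09g009090) averaged 12.2 ± 1.86 FPKM under the line 207 label, against 9.27 ± 3.55 FPKM under the sibling label (SD, n = 3; limma adjusted p = 0.557). GR, the GREEN-RIPE gene, whose product acts with the receptors, was at 1.77 FPKM or less.

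The EBF genes, which act against EIL proteins, were among the more abundant. EBF2 (Solyc07g008250) was at 114, 164 and 116 FPKM under the line 207 label, against 29.0, 78.2 and 99.5 FPKM under the sibling label. The groups did not overlap, and the log2 fold change of 1.07 ± 0.44 (SE) did not pass (limma adjusted p = 0.182). EBF1 (Solyc12g009560) was at 164, 187 and 134 FPKM under the line 207 label, against 35.5, 112 and 147 FPKM under the sibling label, where replicate 3 lay inside the range of labelled line 207 (limma adjusted p = 0.294). The authors' deposited table calls both, with a q of 0.00334 for EBF1 and 0.00361 for EBF2. In both genes sibling replicate 1 was the lowest of all libraries.

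Ethylene is made by ACC synthases (ACS) and ACC oxidases (ACO). Of 8 such genes 6 were tested, and ACO1 was the 1 that passed, at 155, 441 and 341 FPKM under the line 207 label, against 0.012, 0.2003 and 0.0447 FPKM under the sibling label (limma adjusted p = 0.000504). In the authors' deposited table ACO1 has a q of 0.32. ACS2 averaged 5.04 ± 2.49 FPKM under the line 207 label, against 0.501 ± 0.0558 FPKM under the sibling label (SD, n = 3; limma adjusted p = 0.06998). ACS1A was at 8.38, 7.39 and 4.69 FPKM under the line 207 label, against 1.37, 4.60 and 2.06 FPKM under the sibling label, a narrow separation (limma adjusted p = 0.227). The 1 call among the 6 stands beside 10.1% of all tested genes. All 6 log2 fold changes were positive, with a median of 1.07, against 46.0% positive of all tested genes. However, ACO1 and ACS2 reached 1 FPKM under the line 207 label only, so the filter itself fixed their direction. The positive sign of ACO6 rests on sibling replicate 1, at 447 FPKM. Sibling replicates 2 and 3, at 1669 and 1920 FPKM, lay above every library labelled line 207.

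**Figure D4:**
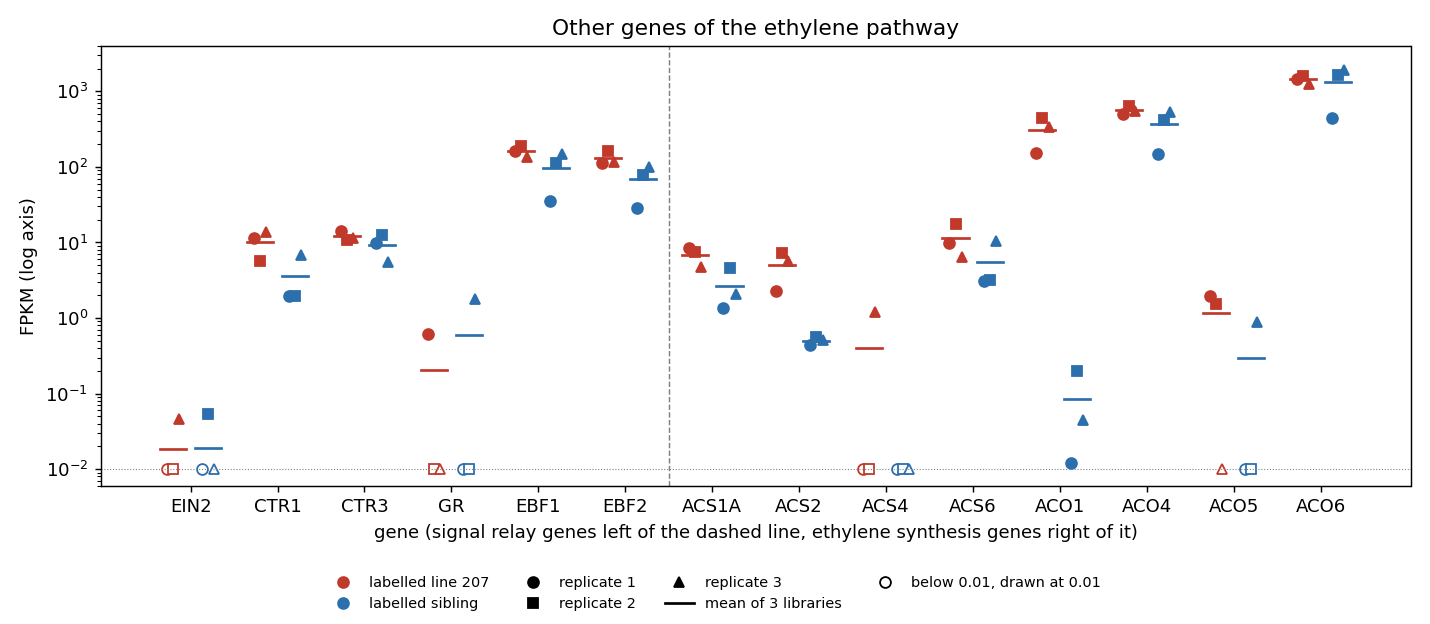
Levels of 6 signal relay genes and 8 ethylene synthesis genes in FPKM on a log axis, with labelled line 207 left of labelled sibling in each gene. Points are libraries shaped by replicate number, lines are means of 3, and open points lie below 0.01 FPKM. EBF1 and EBF2 lie lowest in sibling replicate 1, and EIN2 stays below 0.06 FPKM in all 6 libraries.

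A further 31 genes were described as ethylene receptors or with words for EIN2, EIN3 or EIN3-binding proteins. Of these, 26 were listed at 0 in all libraries and 2 could be tested. Both are described as EIN3-class factors, and neither passed. Solyc01g006650 was at 0.888, 2.06 and 0.867 FPKM under the line 207 label, against 2.40, 11.9 and 1.57 FPKM under the sibling label (limma adjusted p = 0.383). Solyc01g014480 was near 0 in 2 libraries labelled line 207 and at 2.07 FPKM in the third, against 5.41, 0.995 and 2.77 FPKM under the sibling label (limma adjusted p = 0.292). Their means were thus lower under the line 207 label, unlike those of EIL3 and EIL4. Solyc05g008730, described as an EIN3-binding F-box protein, was at 3.61 FPKM in sibling replicate 3 alone, and Solyc09g008720 was at 0.697 FPKM or less.

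For responses downstream of EIL proteins, 169 genes described as ethylene-responsive or ERF transcription factors were read, and 81 could be tested. Of these, 7 were higher and 4 lower under the line 207 label, or 13.6% called beside the 10.1% of all tested genes (limma adjusted p at most 0.05). The median log2 fold change was 0.34, and 51 of the 81 were positive, against 46.0% of all tested genes. Some, such as Solyc02g077370 and Solyc09g007260, reached 1 FPKM under 1 label only, so the filter fixed their direction. Many ERF genes answer to signals other than ethylene. The list follows the words of the descriptions and may mix subfamilies, so being called an ERF gene here means no more than that.

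Solyc06g063070 was the most abundant of the named ERF genes, at 477, 466 and 368 FPKM under the line 207 label, against 180, 219 and 223 FPKM under the sibling label. It was 2.11-fold higher (log2 fold change 1.07 ± 0.18 (SE), limma adjusted p = 0.0142). Solyc03g044300, known as AP2a and listed here by its description only, was 4.21-fold higher (limma adjusted p = 0.0103). Solyc02g077370 was at 15.4, 5.94 and 11.3 FPKM under the line 207 label and was listed at 0 in every labelled sibling (limma adjusted p = 0.0105). Solyc09g066360 was at 20.3, 23.4 and 14.9 FPKM under the line 207 label, against 2.30 FPKM in sibling replicate 3 and a listing of 0 in the others (limma adjusted p = 0.0138).

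Among the lower ERF genes, Solyc01g090340 was at 8.84, 6.89 and 8.79 FPKM under the line 207 label, against 51.0, 58.2 and 47.4 FPKM under the sibling label (log2 fold change -2.54 ± 0.23 (SE), limma adjusted p = 0.00289). Solyc05g050830 averaged 6.50 ± 1.51 FPKM under the line 207 label, against 20.3 ± 6.48 FPKM under the sibling label (SD, n = 3; limma adjusted p = 0.0476). Solyc09g007260 was at 0.52 FPKM or less under the line 207 label and at 7.45 to 13.0 FPKM under the sibling label (limma adjusted p = 0.0158). Solyc06g053240 was at 2.07 FPKM or less under the line 207 label and at 7.0 to 15.2 FPKM under the sibling label (limma adjusted p = 0.0369). The ERF genes called thus moved in both directions.

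**Figure D5:**
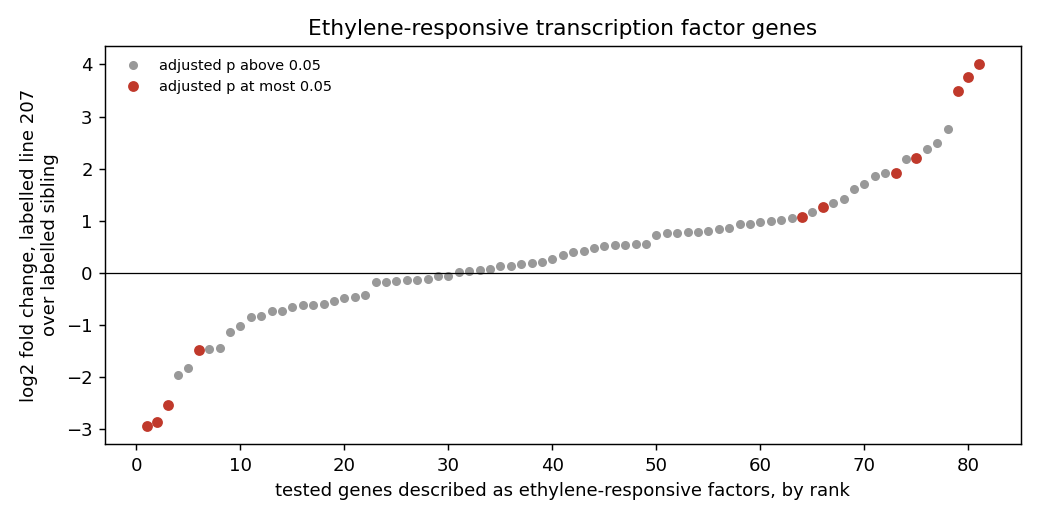
Log2 fold changes, labelled line 207 over labelled sibling, of the 81 tested genes described as ethylene-responsive factors, ordered by value, with those called by limma in red. Called genes lie on both sides of 0, with 7 above it and 4 below it.

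The genes whose profiles over the 6 libraries were most like that of EIL3 were sought by the root mean square difference of log2(FPKM + 1) values centred on each gene's mean. The nearest was Solyc05g008290, described as a bilirubin oxidase, with a difference of 0.069. It was followed by Solyc08g075370, with an annexin domain, at 0.075, and by Solyc11g066440, described as a pheophorbide a oxygenase, at 0.083. Solyc07g054730, described as wound-responsive, was at 0.089, and Solyc01g099990, an F-box protein, at 0.091. Since they were chosen for this likeness, their differences between the labels are no separate result.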

How the data were processed

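Fruit RNA was sequenced in 6 libraries, 3 labelled RNAi line 207 and 3 labelled nontransgenic sibling, called biological replicates in the series' design text. The authors deposited one table of genes by libraries, whose values were taken as FPKM because the submitters' processing notes name TopHat 1.3.2 and Cufflinks and the values have decimals. The table's name is that of a Cuffdiff comparison by coding sequence, so the values, named by gene here, may be sums over transcripts that share a coding sequence and not over a whole gene. Nothing in the sources used here states the genome build, the annotation release or any scaling between libraries. The authors' deposited table also has a p-value and a q-value per gene, and genes with both at 1 were taken as not tested. The table has 34727 rows, and 4 of them are empty of values. Absolute depth is unknown. Relative depth came from the most frequent ratio of low values between each library and sibling replicate 1.

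The main test was limma 3.58.1 (R 4.3.3) with an intensity trend, applied to log2(FPKM + 1), a scale that understates changes of low genes. It covered the 15766 genes that reached 1 FPKM in 3 libraries or more, with Benjamini-Hochberg adjustment over all of them and a threshold of 0.05. It was first tried on simulated data. Alternatives changed the pseudocount, the filter, the scaling, the trend and the replicate block, left out each library in turn, or used the authors' q-value.

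The 10 genes and the lists were chosen with earlier results of these data known. The table holds no symbols. Those of the other pathway genes were assigned to identifiers from general knowledge of tomato gene names, and no file used here pairs them. An item of the synthesis list is not reported here. The ERF list was taken from words in the deposited descriptions, leaving out 9 genes whose descriptions name other proteins. Named were the 10 genes, the RNAi target, the called genes and up to 4 of smallest p in each list taken by identifier, up to 4 called ERF genes per direction, every further receptor or EIN3 gene (those at 0 throughout only counted), and the 5 profiles nearest to EIL3. None of the 10 identifiers (0) was in the RefSeq gene table at hand, so positions and sequences are not printed.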

Additional observations from a re-analysis of the deposited data

How the results depend on the processing

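EIL3 kept its call in every alternative run, with log2 fold changes of 1.47 to 1.79 without any 1 library and an adjusted p of 0.0176 with no filter on low values, 0.0256 with no intensity trend and 0.0224 with the replicate number as a block. The number of the 10 genes called was 1 in each limma fit and 2 by the authors' deposited q, which adds ETR1 (log2 ratio of means 0.63). Same-numbered libraries did not deviate together (correlations of 0.00397, -0.00806 and -0.0105), so the values give no sign of a pairing by number. Such correlations cannot show whether those libraries were grown or prepared together. The other pathway genes counted here are the relay, synthesis, further receptor or EIN3 and ERF genes together. With the block, 894 genes were called in all and 8 of the other pathway genes. Over all genes the calls numbered 1585, 706 to 1219 without any 1 library (787, 711 and 815 without line 207 replicates 1, 2 and 3, and 706 and 949 without sibling replicates 2 and 3) and 2722 by the authors' deposited q. Of the other pathway genes 12 were called in the main fit, 11 of the 81 ERF genes tested and 1 of the 6 synthesis genes tested. The calls numbered 6 to 10 without any 1 library, the fewest without line 207 replicate 1 (6) and line 207 replicate 2 (7). Such fits also have fewer samples. ETR5 and EIL2, neither of which passed, changed sign. ETR5 was at 0.0098 with median ratio scaling and from -0.29 to 0.41 without any 1 library, and EIL2 was at -0.97 to 0.59. EIL1 moved to 5.18 with 0.1 added before the logarithm in place of 1. Values near 0 in some libraries limit what can be said of ETR3, ETR6, EIL1 and EIL2.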

Other observations

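Sibling replicate 1 held the lowest of the 6 values for 8 of the 10 tested genes of signal relay and ethylene synthesis, against 18.5% of all tested genes, and for 1 of the 8 tested receptor and EIL genes, EIL3. ACO4 was at 508, 635 and 550 FPKM under the line 207 label, against 149, 420 and 530 FPKM under the sibling label (limma adjusted p = 0.318), so that sibling replicate 3 lay within the range of labelled line 207. ACO6 was at 1480, 1608 and 1271 FPKM under the line 207 label, against 447, 1669 and 1920 FPKM under the sibling label (limma adjusted p = 0.721). The pattern by library was noticed in the values, and no test of it was made.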
